A study of Homo sapiens with 10 samples.

Results

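Binding of induced RCOR2 was compared with that of RCOR3 in Kelly cells, a human neuroblastoma line with amplified MYCN and an adrenergic cell state. The peaks of the 2 induced RCOR2 libraries and the 2 RCOR3 libraries on chromosomes 1 to 22 and X were merged into 108902 regions, and these were sorted by the libraries that had a peak in them. A region was called RCOR2-only when both RCOR2 libraries and neither RCOR3 library had a peak there, RCOR3-only in the opposite case, and shared when all 4 libraries had one. There were 24766 RCOR2-only, 1960 RCOR3-only and 4359 shared regions, together 31085 of the 108902.

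RCOR2 was pulled down through a 3xFLAG tag from Kelly cells that carry a doxycycline-driven RCOR2 transgene and had received 2 µg/mL doxycycline for 48 h. It was therefore measured as an added, tagged protein, with a FLAG antibody, and not at its natural level. RCOR3 was pulled down with its own antibody from untreated Kelly cells, so protein level, antibody and treatment differ between the sides and cannot be told apart from the protein itself. Of the series' 10 libraries (5 groups of 2), the other 6 serve here as further readouts. RCOR1 was measured with its own antibody in untreated Kelly cells. The uninduced FLAG control is the tagged line without doxycycline, precipitated with the same FLAG antibody. LSD1 (gene symbol KDM1A) came from another Kelly derivative, which carries a doxycycline-inducible shRNA against RUNX1T1 and was not treated. Peak lists hold no expression values, so the identity of the line was not checked from expression markers.

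RCOR1, RCOR2 and RCOR3 are the CoREST proteins, scaffolds that join the histone demethylase LSD1 to the deacetylases HDAC1 and HDAC2. LSD1 removes methyl groups from lysine 4 of histone H3, a mark of active promoters and enhancers, and transcription factors such as REST, SNAI1, GFI1 and INSM1 bring the complex to DNA. In neuroblastoma, the adrenergic state is held by a circuit of factors that includes HAND2 and GATA3.

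Sequences just upstream of the start of transcription are given as examples of the promoters in each class. For each class 2 promoters are printed, those of the strongest regions with at least 1 summit of a defining library inside a promoter of the RefSeq table (GRCh38.p14), where the printed stretch overlapped no gene. Each run is the 200 bases before the start, 5′ to 3′ on the gene's strand, in lower case with searched motifs in capitals. LAMP1 (chr13:113297039-113297238, + strand) and ATRN (chr20:3470818-3471017, + strand) are RCOR2-only. SRP54 (chr14:34982792-34982991, + strand) and AQP10 (chr1:154320893-154321092, + strand) are RCOR3-only. HES1 (chr3:194135948-194136147, + strand) and FBXW5 (chr9:136944739-136944938, − strand) are shared.
LAMP1: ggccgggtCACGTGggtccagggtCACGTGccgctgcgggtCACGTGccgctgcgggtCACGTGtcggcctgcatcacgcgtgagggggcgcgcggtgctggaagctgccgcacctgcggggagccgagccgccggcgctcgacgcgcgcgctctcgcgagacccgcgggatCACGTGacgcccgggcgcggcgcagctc
ATRN: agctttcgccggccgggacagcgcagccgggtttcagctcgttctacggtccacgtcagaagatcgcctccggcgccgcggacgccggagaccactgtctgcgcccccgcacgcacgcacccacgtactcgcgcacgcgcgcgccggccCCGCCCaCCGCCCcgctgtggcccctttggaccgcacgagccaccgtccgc
SRP54: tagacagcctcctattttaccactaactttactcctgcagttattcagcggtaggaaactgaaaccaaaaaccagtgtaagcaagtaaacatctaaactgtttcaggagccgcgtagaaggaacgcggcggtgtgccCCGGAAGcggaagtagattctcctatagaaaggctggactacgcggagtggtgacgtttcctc
AQP10: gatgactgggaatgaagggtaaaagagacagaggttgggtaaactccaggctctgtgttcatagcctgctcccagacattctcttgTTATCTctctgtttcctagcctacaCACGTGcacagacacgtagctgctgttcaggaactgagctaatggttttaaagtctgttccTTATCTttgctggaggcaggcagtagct
HES1: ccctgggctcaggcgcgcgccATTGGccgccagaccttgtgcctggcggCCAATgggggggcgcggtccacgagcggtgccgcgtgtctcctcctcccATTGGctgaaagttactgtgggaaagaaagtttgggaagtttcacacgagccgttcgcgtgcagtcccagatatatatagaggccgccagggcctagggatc
FBXW5: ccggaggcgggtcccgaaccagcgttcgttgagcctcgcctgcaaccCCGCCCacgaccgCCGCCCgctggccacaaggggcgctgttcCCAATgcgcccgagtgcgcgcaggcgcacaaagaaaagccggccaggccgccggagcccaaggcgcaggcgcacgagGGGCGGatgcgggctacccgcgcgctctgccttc

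The LAMP1 promoter holds 5 E-boxes (CACGTG) and 36 CpG in 200 bases, with 77.5% G and C, and that of ATRN holds 2 SP1 boxes (GGGCGG) and 34 CpG. Those of the RCOR3-only regions are poorer in CpG, with 11 at SRP54, which holds 1 ETS site (CCGGAAG), and 2 at AQP10, which holds 1 E-box and 2 GATA sites (AGATAA). The shared promoters of HES1 and FBXW5 hold 3 CCAAT boxes, and 3 SP1 boxes with 1 CCAAT box. In all, 10 motifs were searched on both strands: those named and the NRF1 site GCGCATGC, the CRE TGACGTCA, the YY1 core AAGATGGC, the TATA box TATAAA and the homeobox core TAATTA. None of these words contains another, and neighbouring matches may share bases. A match is a run of letters and not a binding site.

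Over all 22132 promoters in the table (windows of 300 bases, from 250 before to 50 after the start), the median held 21 CpG. Of these, the 7484 promoters overlapping an RCOR2-only region held a median of 28 CpG, the 2351 overlapping a shared region held 27, and the 7229 with no peak of the 4 libraries held 4. Only 16 promoters overlapped an RCOR3-only region, with a median of 4 CpG. The SP1 box was found in 77.3% of RCOR2-only, 75.4% of shared and 56.3% of all promoters, and the ETS site in 16.3%, 21.1% and 12.8%. The E-box was found in 9.41%, 12.6% and 8.34%. The GATA site was found in 3.19% of RCOR2-only, 4.55% of shared and 7.88% of all promoters, and in 8 of the 16 RCOR3-only promoters (14 genes). Among the promoters with no peak, whose median was also 4 CpG, it was found in 16.3%. The promoters of the RCOR2-only and shared classes were thus rich in CpG, while RCOR3-only regions met hardly any promoter. With equal numbers of peaks per library, 79 promoters overlapped an RCOR3-only region and held a median of 16 CpG, and 14 of them (17.7%) had a GATA site.

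The libraries differed in peak number, which bears on every class. The induced RCOR2 libraries gave 75643 and 59726 peaks, and the RCOR3 libraries 13644 and 27786. Read depth is unknown, so a missing peak means only that none was called. Median peak width was 332 and 314 bp for RCOR2 and 204 and 169 bp for RCOR3. Median fold enrichment over background, as the authors' peak caller gave it, was 5.55 and 6.61 for RCOR2 and 4.77 and 5.22 for RCOR3. The upper ends lay further apart, with 95th percentiles of 20.5 and 44.9 for RCOR2 and of 8.54 and 9.60 for RCOR3. Folds of different antibodies are not on a common scale, so only their order within a library can be read. Because of the unequal peak numbers, each result is also given with equal numbers, that is, with the 13644 peaks of highest score (−log10 q) in each library. In that setting a region may lack a strong RCOR2 peak and still hold a weaker one.

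Most regions belonged to a single library, with 34031 in RCOR2 replicate 1 alone, 19164 in RCOR2 replicate 2 alone, 10649 in RCOR3 replicate 2 alone and 2441 in RCOR3 replicate 1 alone. A further 4623 regions had both RCOR2 peaks and that of RCOR3 replicate 2, and 2086 had both and that of RCOR3 replicate 1. Of the 35834 regions with both RCOR2 peaks, 12.2% had both RCOR3 peaks, and of the 7435 regions with both RCOR3 peaks, 58.6% had both RCOR2 peaks. Equal numbers gave 5834 RCOR2-only, 3125 RCOR3-only and 1197 shared regions out of 31803. The shared regions then made up 12.1% of 9889 RCOR2 pairs and 24.5% of 4890 RCOR3 pairs. The weakest members of the classes had −log10 q values of 1.33, 1.302 and 1.32, at the authors' threshold, and 245 RCOR2-only, 130 RCOR3-only and 288 shared regions had a peak with a value under 2.

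**Figure D1:**
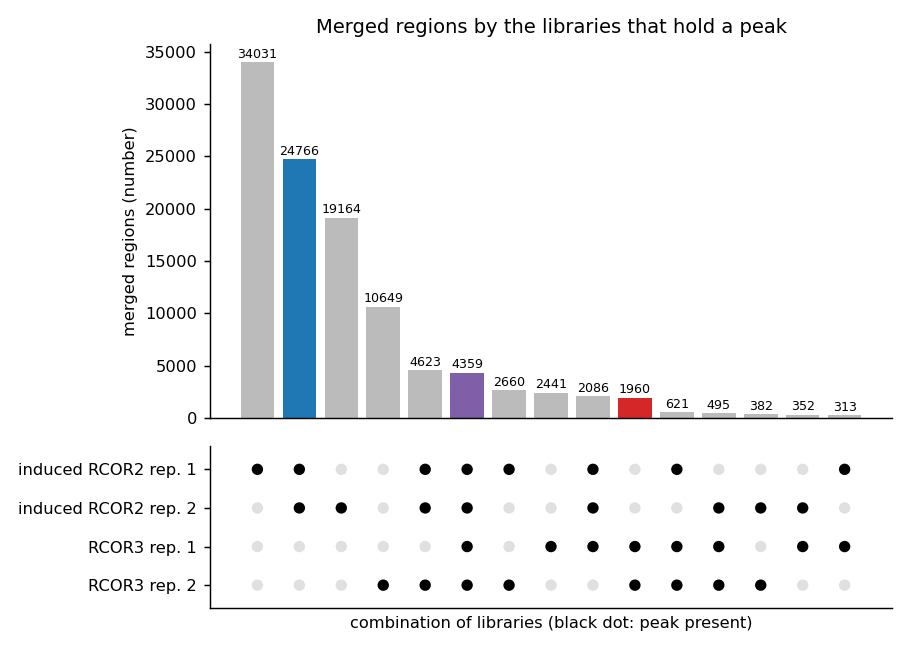
Number of merged regions (y axis) for each combination of the 2 induced RCOR2 and 2 RCOR3 libraries (x axis; black dots mark the libraries with a peak), with all peaks. Coloured bars are the RCOR2-only (blue, 24766), shared (purple, 4359) and RCOR3-only regions (red, 1960).

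Position separated the classes. A gene end is here a stretch within 2 kb of either end of a protein-coding gene, since the table of all genes gives no strand. Such stretches cover 4.55% of the genome between the first and last gene of each chromosome. Of RCOR2-only regions, 40.7% (Wilson 95% interval 40.1 to 41.3) were at a gene end, and of shared regions 45.4% (43.9 to 46.8). Of RCOR3-only regions, 3.27% (2.57 to 4.15) were at a gene end, 64 regions in all. With equal numbers the shares were 71.7% (70.6 to 72.9), 65.3% (62.6 to 68.0) and 6.34% (5.53 to 7.24). The intervals cover counting error only. Start sites alone gave the same order, with 30.8% of RCOR2-only, 40.0% of shared and 1.84% of RCOR3-only regions within 2 kb of one.

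RCOR3-only regions were instead far from gene ends. Of them, 53.2% lay over 50 kb from any protein-coding gene end, against 17.9% of RCOR2-only and 22.5% of shared regions, and 45.2% lay in a gene body, against 67.0% and 68.2%. Their median distance to a gene end was 56707.5 bp, against 4824.5 bp and 4577 bp. They were also narrow, with a median width of 325 bp, against 595 and 953 bp. On chromosome 19, the most gene-dense chromosome, lay 8.63% of RCOR2-only, 5.09% of shared and 0.765% of RCOR3-only regions. The nearest region with both RCOR2 peaks was a median of 30684.5 bp away, and 26.4% of RCOR3-only regions had one within 10 kb.

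Between whole libraries the difference was within the replicate spread when all peaks were used. The share of peaks at gene ends was 28.1% and 33.7% for RCOR2 and 29.99% and 18.9% for RCOR3. RCOR3 replicate 1 lay between the RCOR2 libraries and RCOR3 replicate 2 below both, so the groups overlapped. Means were 30.9% ± 3.96 and 24.4% ± 7.85 (SD, n = 2 each), a difference of 6.48 percentage points (two-sided exact permutation test, p = 0.667). With equal numbers the shares were 59.0% and 66.8% for RCOR2 and 29.99% and 15.7% for RCOR3, and the groups did not overlap. The means of 62.9% ± 5.50 and 22.9% ± 10.1 (SD, n = 2 each) differed by 40.0 points, with an exact p of 0.333, the smallest that 2 libraries against 2 allow. The labels do not say that replicates are separate cultures, so the spread may be technical.

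**Figure D2:**
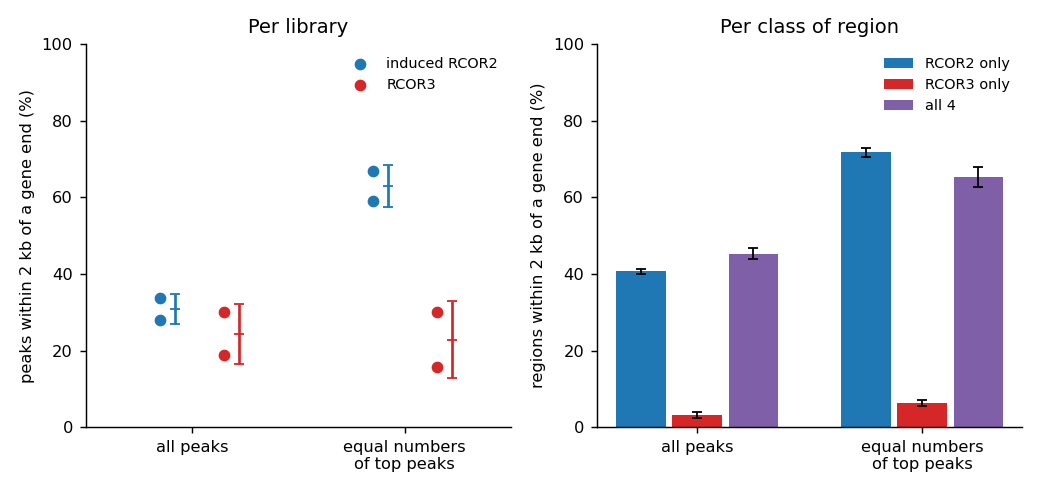
Share of peaks per library (left; points are libraries, bars the mean and SD of 2) and share of regions per class (right; bars are Wilson 95% intervals) within 2 kb of a gene end, in percent, with all peaks and with equal numbers. The RCOR3-only class stays at 3.27% and 6.34% while the RCOR2-only class goes from 40.7% to 71.7%.

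Strength ran in opposite directions with position in the 2 proteins. Regions with both RCOR2 peaks were ordered by the lower of their 2 peak scores, as percentile ranks, and cut into 10 parts of equal size. From the weakest to the strongest part, the share at gene ends went from 22.4% to 77.1%, the share with both RCOR3 peaks from 7.73% to 28.2% and the share with an uninduced FLAG peak from 8.76% to 74.5%. Among regions with both RCOR3 peaks, ordered in the same way, the share at gene ends went from 37.4% to 4.84%. LSD1 replicate 1 had a peak in 46.3% of the weakest part of these and in 85.8% of the strongest. In RCOR2 pairs the same library had a peak in 12.4% of the weakest and 8.43% of the strongest part. The strongest RCOR2 binding was thus at gene ends, mostly without an LSD1 peak, and the strongest RCOR3 binding away from them, mostly with one.

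**Figure D3:**
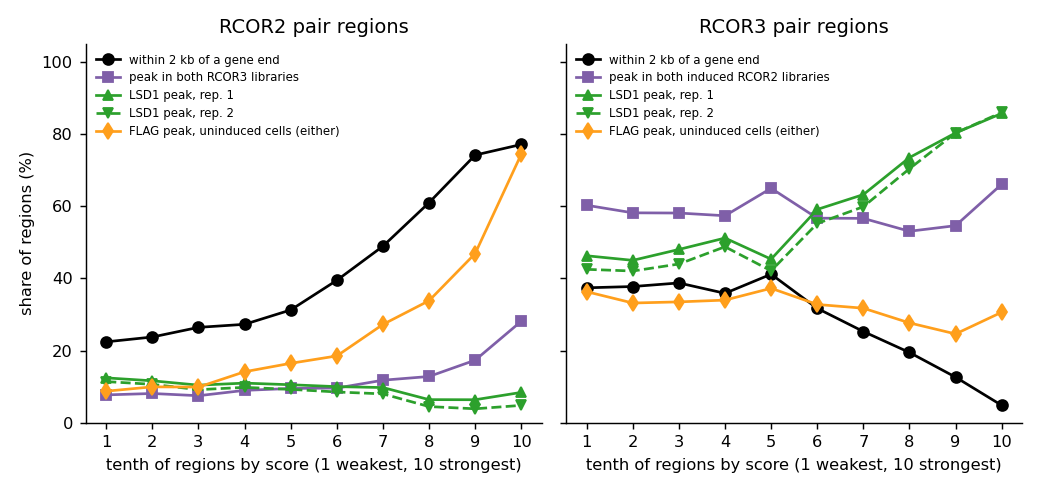
Share of regions (y axis, percent) at a gene end, with a peak of the other protein's pair, with an LSD1 peak and with an uninduced FLAG peak, in 10 parts by peak score (x axis, weakest to strongest) for regions with both RCOR2 peaks and regions with both RCOR3 peaks. The gene-end share runs from 22.4% to 77.1% for RCOR2 and from 37.4% to 4.84% for RCOR3.

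Fold enrichment followed the same lines. RCOR2-only regions had median folds of 7.19 and 8.54 in the RCOR2 libraries, and shared regions 13.1 and 13.3. At gene ends the shared regions reached 18.3 and 30.3, against 9.01 and 7.41 elsewhere, and the RCOR2-only regions 8.69 and 13.3, against 6.58 and 7.26. The RCOR3 medians differed less, with 5.17 and 6.01 in RCOR3-only regions and 5.17 and 6.11 in shared ones. Within the shared regions the RCOR3 folds were 4.84 and 5.81 at gene ends and 5.74 and 6.79 elsewhere.

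In shared regions the summits of RCOR2 and RCOR3 peaks lay a median of 107 to 114 bp apart, over the 4 pairs of libraries. The median was 67 bp between the RCOR2 libraries and 83 bp between the RCOR3 libraries. At gene ends the proteins' summits were 125 to 153 bp apart, against 69 and 106 bp within a protein. Elsewhere the values were 85.0 to 92.5 bp between proteins and 65 and 71 bp within, so the offset was smaller there.

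The other libraries met the classes unequally. LSD1 peaks (replicate 1, replicate 2) were found in 77.3% and 80.8% of RCOR3-only regions, in 46.1% and 40.3% of shared regions and in 2.17% and 1.29% of RCOR2-only regions. As means these are 79.0% ± 2.45, 43.2% ± 4.12 and 1.73% ± 0.622 (SD, n = 2 libraries). RCOR1 peaks were found in 94.2% and 72.2% of RCOR3-only, 98.6% and 88.8% of shared, and 30.1% and 10.5% of RCOR2-only regions. Shared regions were divided by position: at gene ends 24.8% and 13.5% had an LSD1 peak, and elsewhere 63.8% and 62.5%. The LSD1 order of the classes held with equal numbers, at 81.6% and 82.2%, 25.3% and 18.7%, and 2.37% and 1.06%.

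The size of these shares depended on RCOR3 replicate 1. Without that library the RCOR3-only class grew to 12709 regions and its LSD1 shares were 20.3% and 23.1%. Its RCOR1 shares were 28.6% and 19.2%, against 35.4% and 14.4% in the RCOR2-only class. The RCOR3-only share was thus lower in RCOR1 replicate 1 and still higher in replicate 2, with a mean difference of -1.05 points. Without RCOR3 replicate 2, the class held 4504 regions and its LSD1 shares were 67.9% and 71.8%. The 10649 regions with a peak of RCOR3 replicate 2 alone had LSD1 peaks in 9.25% and 11.9%, while the 2441 with a peak of replicate 1 alone had them in 61.4% and 65.7%. The gene-end share of the RCOR3-only class was low in both cases, at 2.93% without replicate 1 and 4.95% without replicate 2. By whole libraries, 49.99% and 23.1% of RCOR3 peaks and 6.34% and 8.73% of RCOR2 peaks overlapped a peak of LSD1 replicate 1 (exact permutation test, p = 0.333, the smallest possible).

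The uninduced control also had peaks in these regions. They were found (replicate 1, replicate 2) in 9.70% and 6.88% of RCOR2-only, 0.102% and 1.38% of RCOR3-only, and 37.5% and 32.6% of shared regions. At gene ends, 57.8% and 35.1% of shared regions had one. With equal numbers the shares were 34.2% and 17.9%, 1.25% and 7.90%, and 68.3% and 50.1%. Without all regions holding an uninduced peak, 21250 RCOR2-only, 1932 RCOR3-only and 2090 shared regions were left, and 38.6%, 3.21% and 30.05% of them were at gene ends. RCOR3-only regions hold no induced FLAG peak by definition, so their low share with an uninduced FLAG peak is in part built in. By whole libraries, means of 10.6% of RCOR2 and 14.2% of RCOR3 peaks overlapped a peak of uninduced replicate 1. For uninduced replicate 2 the means were 11.3% and 16.4%. With equal numbers they were 37.4% and 15.2% for replicate 1, and 25.8% and 19.2% for replicate 2.

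**Figure D4:**
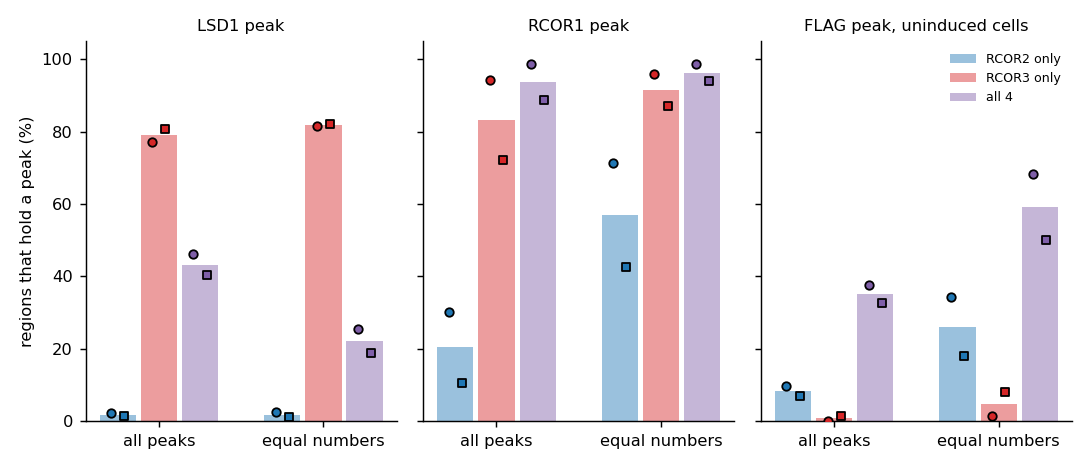
Share of regions (y axis, percent) of each class that hold a peak of LSD1, RCOR1 or the uninduced FLAG control, with all peaks and with equal numbers. Circles are replicate 1, squares replicate 2 and bars their mean. With all peaks, LSD1 peaks are in 77.3% and 80.8% of RCOR3-only regions and 2.17% and 1.29% of RCOR2-only regions.

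Of 19974 protein-coding genes, 46.9% (9374) had an RCOR2-only region at an end, 0.33% (66) an RCOR3-only region and 12.1% (2423) a shared one. With equal numbers these were 24.3% (4851), 1.08% (215) and 4.92% (982). Since a gene can have several regions, 8725 genes had RCOR2-only regions alone, 1788 shared regions alone, 620 both of these, and 24 RCOR3-only regions alone. The counts for the gene lists below are to be read against these shares.

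The strongest RCOR2-only regions at gene ends were at genes of varied function. That of LAMP1, a lysosomal membrane protein, had folds of 51.4 and 97.6 (chr13:113296468-113297666), and that of ATRN, attractin, 40.9 and 89.3 (chr20:3470315-3471665). The chloride exchanger gene CLCN7 followed with 36.3 and 86.2, the zinc-finger regulator gene ADNP with 43.7 and 78.1, and AGPS, an enzyme of ether lipid synthesis, with 39.9 and 78.7. Of the strongest 10, which also include RABEP1, ZNF786, RNF126 and CENPS, 9 had an uninduced FLAG peak and none had an LSD1 peak. The second strongest was in RCOR2 itself, with folds of 60.9 and 86.7 (chr11:63911593-63912583). It lay inside the gene, 363 bp from the end with the lower coordinate, and both uninduced libraries had a peak there while neither RCOR1 library did. The cells carry an RCOR2 transgene, and in peak lists its reads cannot be told apart from those of the natural gene. Away from gene ends the strongest was 63911 bp from PAX2, a developmental transcription factor gene, with folds of 40.5 and 72.7 and no peak in any of the 6 other libraries.

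Only 64 RCOR3-only regions were at gene ends. The strongest was at LIX1 with folds of 8.70 and 10.5, inside the gene and 40329 bp from the nearest start site in the table. Those at CCDC182 (9.39 and 9.43), TFRC, the transferrin receptor gene (10.5 and 9.21), and SH2D4B (11.9 and 8.15) followed. All of the strongest 10, which also include PEF1, YPEL2, LIPG, DLEU7, TMT1A and FAM163B, had peaks of both RCOR1 libraries and of at least 1 LSD1 library, and none had an uninduced FLAG peak. SRP54, a subunit of the signal recognition particle, had folds of 4.85 and 5.44 at the promoter printed above. The water channel gene AQP10 had 3.40 and 6.17.

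Most RCOR3-only regions were away from gene ends, and the strongest of these differed from the rest of the class. Of the strongest 10, 7 lay over 100 kb from a RefSeq gene of any kind, 4 of the 10 in a stretch whose nearest protein-coding gene was ALG10B, and only 1 had an LSD1 peak. That one, nearest to SLC39A11, had folds of 13.4 and 19.7. In the rest of the 10 the replicates lay further apart, with folds of 3.43 to 9.19 in RCOR3 replicate 1 and 11.8 to 21.6 in replicate 2. In the class as a whole, 8.67% of regions were over 100 kb from any gene, against 2.19% of RCOR2-only and 1.81% of shared regions. Without them, LSD1 peaks were found in 83.6% and 87.2% of RCOR3-only regions. Among regions within 100 kb of a RefSeq gene of any kind and without an uninduced peak, looked at after the values were seen, the strongest 4 had no LSD1 peak. Of these, 3 lay 409147 to 411035 bp from WSB1 and 1 lay 2317415 bp from LOC124904970, the nearest protein-coding genes. The fifth, inside CHST8 (11.4 and 15.97), and the sixth, 533104 bp from CDH11 and 80550 bp from the noncoding gene LINC00922 (17.6 and 15.7), had peaks of both LSD1 libraries. The protein-coding genes most often nearest to a distal RCOR3-only region were SPATA31A5 with 35, EMB with 22 and ALG10B with 17. The same genes were nearest to 1, 62 and 13 distal RCOR2-only regions, and EMB to 7 shared ones. It is not known whether stretches prone to artefact signal were removed, which bears on these counts and on the regions far from genes.

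The strongest shared region at a gene end lay 1756 bp from CCDC200, on the snRNA gene RNU2-1, with RCOR2 folds of 35.4 and 43.4 and RCOR3 folds of 9.31 and 28.4. HES1, FBXW5 and PLXNA1 were also among the strongest. HES1, a repressor downstream of Notch, had RCOR2 folds of 67.7 and 69.7 and RCOR3 folds of 12.1 and 14.2, with peaks in all 6 other libraries. FBXW5, a ubiquitin ligase subunit, had 45.4 and 127 for RCOR2 and 9.37 and 10.4 for RCOR3. PLXNA1, a semaphorin receptor, had 77.3 and 59.4 against 7.40 and 8.26, and SHD 39.8 and 35.6 against 7.85 and 8.95. Of the strongest 10, 9 had an LSD1 peak and 7 an uninduced FLAG peak. Away from gene ends, 6 of the strongest 10 shared regions were in a cluster next to CCDC200 on chromosome 17, each over an annotated snRNA gene, and all 10 had an uninduced FLAG peak. These snRNA genes are repeated copies, and the labels do not say how reads from such copies were handled.

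Many adrenergic regulators had a shared region. Of 25 genes, 11 (44.0%, against 12.1% of all genes) had a shared region at an end, 16 (64.0%, against 46.9%) an RCOR2-only region and none an RCOR3-only region. PHOX2A, a homeobox factor of noradrenergic neurons, had RCOR2 folds of 30.3 and 53.2 and RCOR3 folds of 7.27 and 7.47. The shared region at GATA2, whose peaks partly lay over 2 kb from the ends, had 30.7 and 47.2 against 4.51 and 5.49. That at ISL1, a homeobox factor of sympathetic neurons, had 23.2 and 22.3 against 5.49 and 6.72. RCOR2-only regions overlapped the ends of SATB1 (14.9 and 33.0) and ZNF536 (16.04 and 19.7), neither with an LSD1 peak. The highest RCOR2 peaks of all within 2 kb of the ZNF536 ends had 18.3 and 50.5.

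Away from their ends, 21 of the 25 regulators were nearest to an RCOR2-only region, 14 to a shared one and 9 to an RCOR3-only one, against 34.0%, 7.75% and 6.26% of all genes. That is 84.0%, 56.0% and 36.0% of the list. MYCN alone accounted for 33 of the 62 shared regions. Within 2 Mb of this gene, which is amplified in the line, lay 1.49% of shared, 0.357% of RCOR3-only and 0.0727% of RCOR2-only regions, and the part of copy number was not tested. The RCOR3-only regions included those nearest to KLF7 (6.58 and 6.92), TBX3 (6.40 and 6.65, 318389 bp away) and GATA3 (4.47 and 5.41), each with peaks in both LSD1 libraries. With equal numbers, 6 of 25 regulators had an RCOR2-only region at an end, close to the 24.3% of all genes. A shared region was at the end of 4 of 25, against 4.92% of all genes, and an RCOR3-only region at 1.

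Of 10 genes for making and moving noradrenaline, 3 had a shared region at an end and 6 an RCOR2-only one, and with equal numbers these were 1 and 4. Over all genes the shares were 12.1% and 46.9%, and with equal numbers 4.92% and 24.3%. The 3 shared regions named here were taken by strength, which includes the RCOR3 score. That their RCOR3 folds lay above the class medians of 5.17 and 6.11 thus follows in part from the choice. DBH, which makes noradrenaline from dopamine, had RCOR2 folds of 22.2 and 9.57 and RCOR3 folds of 12.7 and 13.8 at its end. The noradrenaline transporter gene SLC6A2 had 49.3 and 63.3 against 6.58 and 11.2. A shared region inside DDC, the decarboxylase gene, had 9.63 and 9.81 against 11.6 and 11.9. All of these had peaks in both LSD1 libraries. TH, the first enzyme of the path, had an RCOR2-only region with 16.6 and 24.99 and no LSD1 peak.

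Most genes of the LSD1-CoREST complex and its recruiters had an RCOR2-only region at an end. Of 21 genes, 13 (61.9%) had an RCOR2-only, 2 (9.52%) a shared and none an RCOR3-only region there. Over all genes these shares were 46.9%, 12.1% and 0.33%, so the list was not set apart by its shared or RCOR3-only counts. With equal numbers, 11 of 21 (52.4%) had an RCOR2-only region, against 24.3% of all genes. The strongest RCOR2 peaks within 2 kb of the ends had folds of 24.9 and 74.4 at KDM1A, 33.5 and 57.6 at HDAC2, 24.9 and 30.3 at RCOR1 and 27.1 and 64.9 at SNAI1. RCOR3 replicate 1 had no peak at any of these 4 genes, and replicate 2 had one at KDM1A (6.65) and SNAI1 (5.17). RCOR3 itself carried a shared region, with 78.6 and 96.5 for RCOR2 and 6.14 and 7.32 for RCOR3. The other shared one was at GFI1B, with 22.3 and 73.2 against 4.04 and 4.29, and it was the only gene of this list with an LSD1 peak at an end (4.82 and 4.16).

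Among the other lists, RCOR2-only regions at ends were most frequent at HOX genes (37 of 39, 94.9%) and potassium channel genes (23 of 30, 76.7%). With equal numbers the HOX count was 6 of 39. Histone genes (20 of 41), genes of ribosomal proteins (36 of 75) and those of splicing (15 of 32) were close to the 46.9% of all genes. HOXC4, HOXC5 and HOXC6 shared 1 region with all 4 libraries (RCOR2 78.6 and 62.7, RCOR3 6.46 and 5.97). Shared regions were most frequent, after the adrenergic list, at splicing factors (12 of 32, 37.5%), p53 targets (9 of 24, 37.5%), replication-dependent histones (13 of 41, 31.7%), cell cycle genes (10 of 32, 31.2%), MYC targets (9 of 30), noradrenaline genes (3 of 10) and ribosomal proteins (18 of 75). Over all genes the share was 12.1%. Examples are SRSF4, a splicing factor (27.4 and 68.6 against 5.49 and 6.29), GADD45A, a stress gene (18.9 and 51.5 against 6.40 and 5.97), and HSPD1, a mitochondrial chaperone (33.7 and 57.9 against 6.46 and 5.97). Histone genes lie close together, and several share a region: that of H2BC13 and H3C10 had 18.3 and 10.6 against 5.81 and 7.39. With equal numbers no histone gene had a shared region and 5 had an RCOR3-only one.

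REST targets had 21 RCOR2-only and 8 shared ends of 34 (CHGB, a granule protein, 36.5 and 52.4 against 6.70 and 5.20), immediate early genes 12 and 4 of 20 (JUN 23.2 and 31.4 against 8.07 and 7.46), mesenchymal-state genes 15 and 3 of 26, and oxidative phosphorylation genes 17 and 7 of 35. The shares over all genes were 46.9% RCOR2-only and 12.1% shared. Close to these were oxidative phosphorylation genes for RCOR2-only regions (48.6%) and mesenchymal-state genes for shared ones (11.5%). Genes of other tissues were low: 4 and 1 of 25 liver genes, and 6 and 0 of 24 keratinocyte genes. An RCOR3-only region at an end, which 0.33% of all genes had, was found in 4 lists, 1 gene each: TCF7L2, SRSF2, POLK and KCNJ6. At KCNJ6, a potassium channel gene, the folds were 8.07 and 6.11.

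Axon guidance genes were the list most often nearest to a distal RCOR3-only region: 15 of 36 (41.7%), with 47 regions, against 6.26% of all genes. Of the same 36 genes, 27 were nearest to a distal RCOR2-only region and 11 to a distal shared one. Over all genes these shares were 34.0% and 7.75%. The list thus lay above all genes in each class, and not for RCOR3-only regions alone. At the ends of these genes there was no RCOR3-only region, against 0.33% of all genes. An RCOR2-only one was at the ends of 20 (55.6%), against 46.9%. ROBO1, a Slit receptor, had RCOR3 folds of 11.3 and 14.9, PLXNA2 9.98 and 11.6, and ROBO2 9.63 and 13.2, all with peaks in both LSD1 libraries. SLIT3, a ligand of these receptors, and PLXNA2 were each nearest to 8 distal RCOR3-only regions, and ROBO2 to 7. These genes are long, with a median of 231.5 kb against 24.2 kb for all genes. The part of gene length in these counts was not tested.

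**Figure D5:**
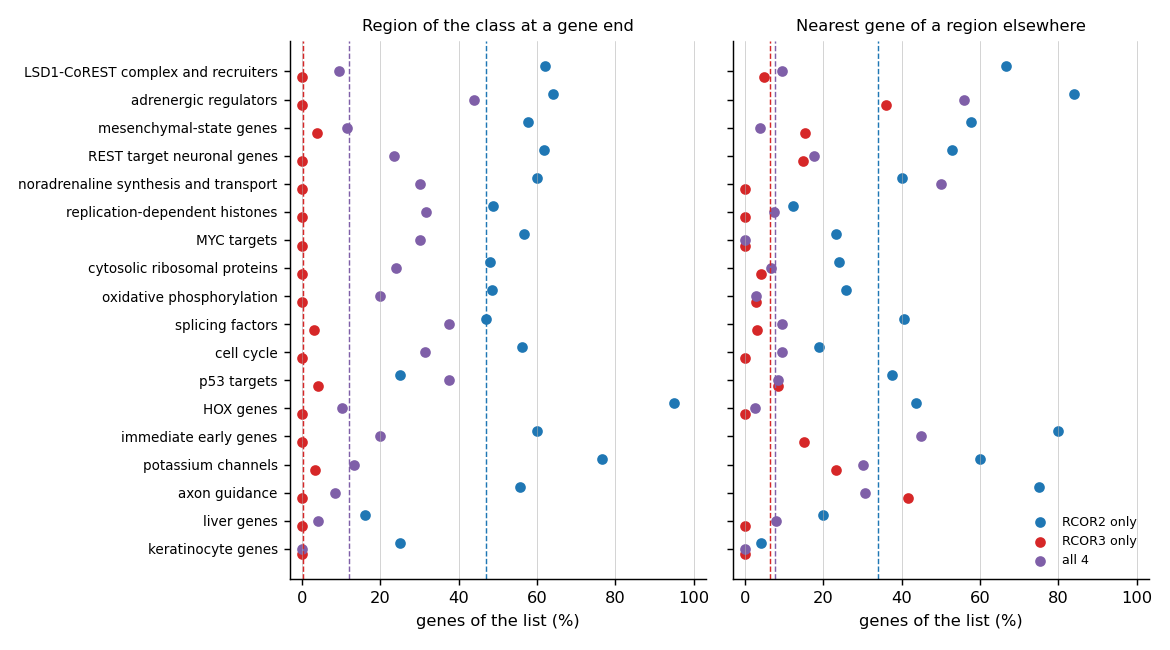
Share of each list's genes (x axis, percent) with an RCOR2-only, RCOR3-only or shared region within 2 kb of an end (left) and as nearest protein-coding gene of a region elsewhere (right). Dashed lines mark the shares over all 19974 protein-coding genes. Adrenergic regulators reach 44.0% for shared ends, and axon guidance genes 41.7% for distal RCOR3-only regions.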

How the data were processed

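Per the submitters' processing notes, BWA 0.7.17 placed the reads on GRCh38 and MACS2 called the peaks. Each deposited list holds 1 library's peaks. The fold enrichment (a ratio) and the −log10 q-value per peak are the authors' values, and the lowest lie at a q-value of 0.05. The sources used here do not give the control library, how duplicates were handled or whether stretches prone to artefact signal were removed. No read counts were used, so depth is unknown. Peak names within the lists of the FLAG libraries, RCOR3 replicate 2 and RCOR1 replicate 2 carry other replicate names than the labels, which were followed.

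Peaks on chromosomes 1 to 22 and X were merged with an overlap of at least 1 bp. Gene ends came from RefSeq (GRCh38.p14, 19974 protein-coding genes, no strand), and start sites and sequences from its promoter table, in which genes of chromosome 8 were not used. All 18 lists were matched by symbol (556 of 557 genes). A region's strength is the lower percentile rank of the authors' score over its defining libraries. Named were the 10 strongest regions per class at gene ends and elsewhere, the adrenergic and LSD1-CoREST members and up to 4 members of other lists, not all of which are printed. Members and lists were chosen with earlier results of these data known. Class shares have Wilson intervals, and libraries were compared with two-sided exact permutation tests. The class script was tested on simulated data with widely spaced sites and recovered every region there. Closely spaced peaks were not simulated. Python 3.11.15, numpy 2.4.6, pandas 2.3.3, scipy 1.17.1 and matplotlib 3.10.9 were used.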

Additional observations from a re-analysis of the deposited data

How the results depend on the processing

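Differences between classes are given in percentage points as RCOR2-only minus RCOR3-only for gene ends (37.4) and uninduced FLAG peaks (7.55), and as RCOR3-only minus RCOR2-only for LSD1 (77.3) and RCOR1 peaks (62.9). A stricter −log10 q of 2, a 50% overlap for merging and removal of 2 Mb either side of MYCN moved none of these, nor the counts of regions and genes, beyond the limits set. Equal numbers of top peaks gave 5834, 3125 and 1197 regions, gene-end, RCOR1 and uninduced FLAG differences of 65.4, 34.6 and 21.5, and 4851, 215 and 982 genes. Peaks set to 500 bp gave a gene-end difference of 34.4 and 149 genes with an RCOR3-only region. Without regions holding an uninduced FLAG peak there were 2090 shared regions and 762 genes with one, and the gene-end and RCOR1 differences were 35.4 and 66.6. A gene-end window of 500 bp gave a difference of 29.5 with 25 RCOR3-only genes, and start sites gave 30.2 with 37. At gene ends the LSD1 and RCOR1 differences were 71.9 and 53.2, and RCOR1 elsewhere was 70.3. In a pair of alternatives chosen after seeing the data, leaving out regions over 100 kb from any gene gave an LSD1 difference of 83.6, and equal numbers without uninduced peaks gave 3338 RCOR2-only and 230 shared regions and gene-end, LSD1 and RCOR1 differences of 63.5, 81.1 and 43.1. Leaving out each library gave 26858 to 60850 RCOR2-only, 2479 to 12709 RCOR3-only and 4808 to 8964 shared regions, gene-end differences of 21.0 to 39.5, LSD1 of 18.9 to 78.6, RCOR1 of -1.05 to 74.1, uninduced FLAG of 2.50 to 12.4, and 113 to 416 RCOR3-only and 2393 to 4848 shared genes. The lowest LSD1 and RCOR1 values are those without RCOR3 replicate 1. There the mean RCOR1 difference reversed to -1.05, through RCOR1 replicate 1 and not replicate 2. With fewer libraries each class has fewer conditions to meet, so its count grows by construction, and the cause of the other moves was not tested. The gene-end share of whole libraries with the replicate block differed by the same 6.48 points (exact p = 1, the smallest possible being 0.5). Same-numbered libraries did not deviate together in called regions (correlation -0.00691 over 108902 regions). Most of these regions have a peak in a single library, so the value cannot show whether the libraries were paired. Unknown depth limits every statement on a missing peak, above all for RCOR3 replicate 1 with 13644 peaks.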
